A study of Homo sapiens with 16 samples.

Results

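SR proteins and heterogeneous nuclear ribonucleoproteins (hnRNPs) were followed through the differentiation of human embryonic stem cells towards endoderm with activin A. Members were taken by symbol: every SRSF gene (serine- and arginine-rich splicing factor), every gene whose symbol starts with HNRNP, the transformer-2 homologues TRA2A and TRA2B, and the SR-related coactivators SRRM1 and SRRM2. These gave 39 symbols on 37 of the 18495 gene-level features (array rows) of the table, and the whole table named 18421 symbols. The 37 rows were 11 SRSF rows, 2 TRA2 rows, 2 SRRM rows and 22 hnRNP rows. Where a gene had several rows, the row with the highest mean was used. HNRNPA1, HNRNPA1L2 and HNRNPA1P10 shared 1 row, and the rows of SRSF2 (with MIR636), SRSF5 (with LOC100289511), HNRNPK (with MIR7-1), HNRNPC (with CHD8 and SNORD8), HNRNPUL2 (with BSCL2), HNRNPM (with ND1 and DYNC1I2), HNRNPA1P6 (with DAB1 and OMA1) and HNRNPA1P27 (with NOX1) also carried genes outside the families. The last pair are pseudogene symbols, so their rows may report the other genes listed.

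The cells were H9, an established human embryonic stem cell line, at all times. Day 0 cells (n = 4) were undifferentiated, kept on mouse embryonic fibroblast feeders or on Matrigel in fibroblast-conditioned medium with bFGF at 8 ng/ml. Day 1 (n = 3), day 3 (n = 3) and day 5 (n = 4) cells were grown in RPMI-1640 with activin A at 100 ng/ml and fetal bovine serum that was raised in steps. Activin A, basal medium, serum and bFGF therefore changed together between day 0 and the later days, and their parts cannot be told apart. Feeders, Matrigel and conditioned medium at day 0 may add to this. The sample titles do not say which day 0 sample had which. Total RNA depleted of ribosomal RNA was hybridised to 16 Human Exon 1.0 ST arrays, with replicate 4 of day 0 and of day 5 on a pair of technical arrays each. The labels call the replicates biological but do not say how the cultures were separated, so p-values measure the spread between these samples, all of 1 line. RNA came from whole cultures, so fewer cells of a type and less RNA per cell cannot be told apart. All values are log2 of the deposited intensity plus 1, and a change is a difference of such values, so that 1 log2 unit is a doubling. Levels were compared only within a row, never between genes.

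SR proteins have RNA recognition motifs and a tail rich in arginine and serine (the RS domain), which is phosphorylated by SRPK and CLK kinases. They bind exonic enhancers and recruit the spliceosome, and several also act in mRNA export and translation. The hnRNPs coat nascent transcripts and often act against SR proteins, by silencing exons or binding intronic elements. Many genes of both groups limit their own mRNA by splicing in a poison exon that leads to nonsense-mediated decay. A gene-level value sums over exons and shows no such isoform.

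Some libraries stood apart. Over all rows, the median correlation with the other samples of the same day was 0.8288 for day 3 replicate 2 and 0.858 for day 5 replicate 2, against 0.901 to 0.962 for the other 12 samples. The labelled state was checked with 11 definitive endoderm markers, whose mean change from day 0 was 4.37 and 4.63 log2 units in day 3 replicates 1 and 3 and 4.13 to 5.13 at day 5. It was 0.16 in day 3 replicate 2, where 10 pluripotency markers stood at -0.44 against -1.43 and -1.40 in the other day 3 samples. The library labelled day 3 replicate 2 thus went against its label. Results are therefore given with and without it, and without it and day 5 replicate 2 together. Day 5 replicate 2 did carry the endoderm markers of its label. Both libraries were picked out from these same data. Adjusted p-values from limma without them follow that choice and describe the samples that remain.

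In the main fit, with equal weight for all 14 samples, no member passed the test at any time. With limma and Benjamini-Hochberg adjustment over all 18495 rows, 0 of 37 members had an adjusted p below 0.05 at day 1 against day 0 (background 0.00541% of rows), day 3 against day 0 (0.0270%), day 5 against day 0 (5.46%) and day 5 against day 1 (3.33%). The F test over the 3 changes from day 0 also called 0 of 37 (background 3.73%). At an unadjusted limma p below 0.05 there were 0, 5, 4 and 6 members in the 4 comparisons in that order, beside 6.03%, 8.56%, 17.2% and 14.5% of all rows, and 6 members in the F test beside 14.7%. This count of 0 depended on the fit. Other equal-weight fits of the same samples called SRSF2 or HNRNPUL2 in some comparisons, as given at the end. Array weights, which give irregular arrays less say and whose estimation stopped before its tolerance was reached, called 1 of 37 members at day 1 (HNRNPH2; background 13.7%), 6 at day 3 (SRSF1, SRSF2, SRSF6, TRA2A, TRA2B and HNRNPF; 15.1%) and 0 at day 5 (16.2%), all against day 0. They called 11 at day 5 against day 1 (34.6%) and 13 in the F test (45.5%), so these fits called far more of all rows too. The precision differed between members. The 95% interval of the change lay within 1 log2 unit of 0 for 18 of 37 members at day 1 (background 35.7%), 10 at day 3 (31.5%) and 16 at day 5 (32.9%), all against day 0. For the other members a change of 1 log2 unit or more in at least 1 direction was inside the interval.

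The heat map of all members shows where the spread lay.

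**Figure D1:**
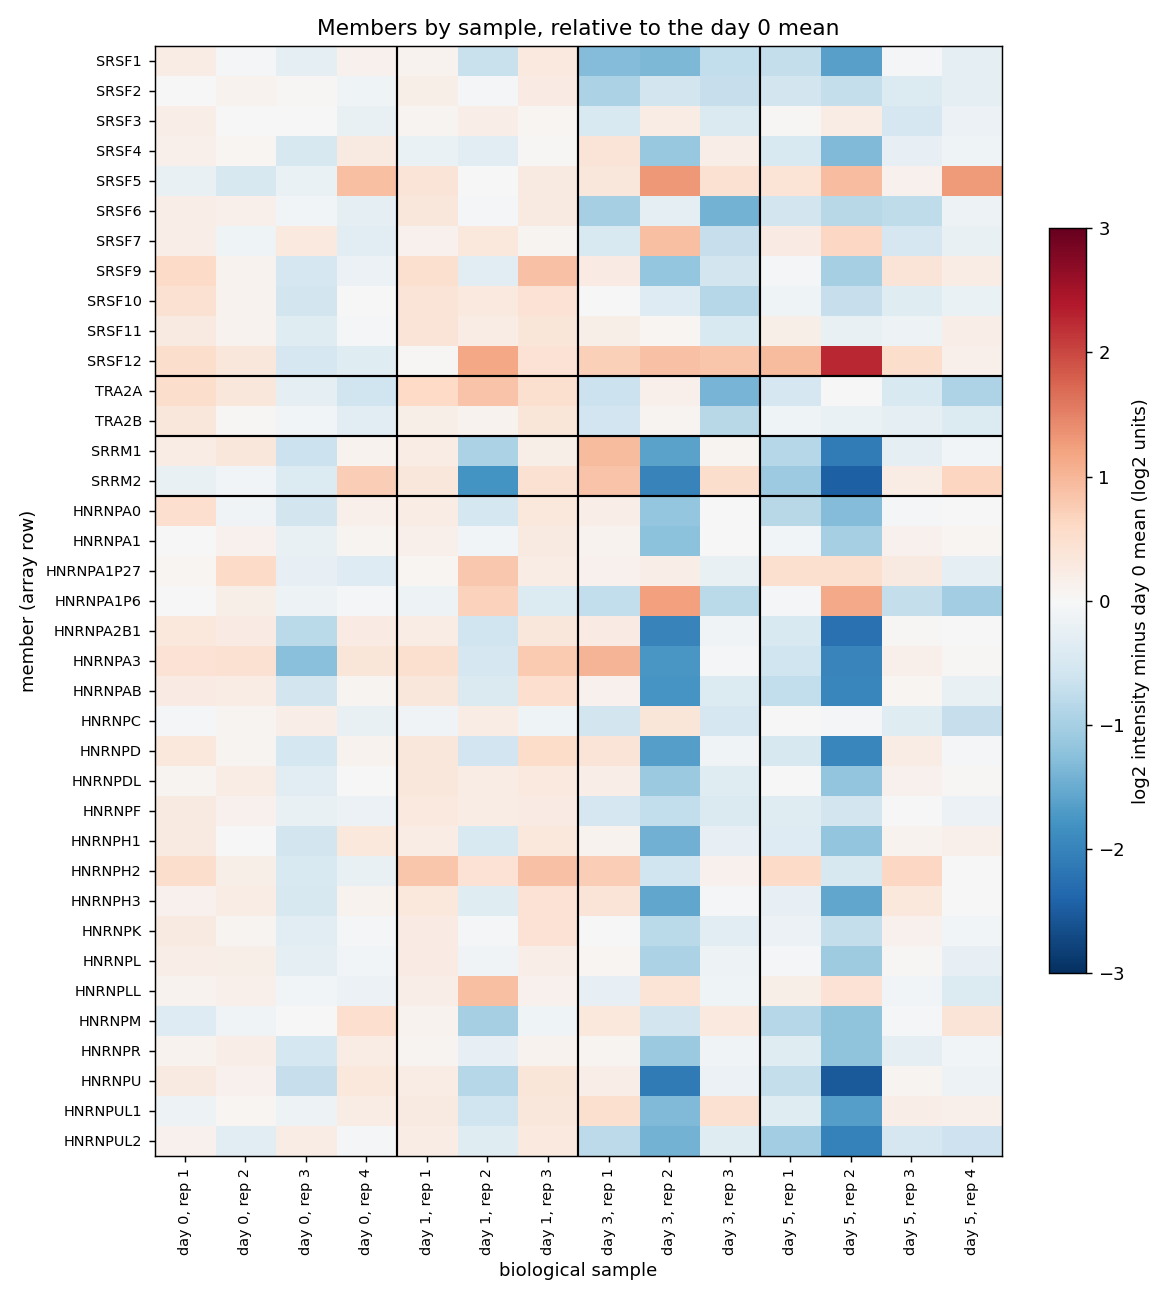
Each cell is the log2 intensity of 1 member in 1 of the 14 biological samples minus the mean of the 4 day 0 samples, on a scale from -3 to 3 log2 units, with families and days separated by lines. In replicate 2 of days 3 and 5, both SRRM members and 18 of 22 hnRNP members are the lowest of their day, HNRNPC, HNRNPLL and HNRNPA1P6 are high in day 3 replicate 2, and SRSF1, SRSF2 and SRSF6 are below the day 0 mean in all 3 day 3 samples.

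Promoter sequence from RefSeq (GRCh38.p14) was found for 32 of the 37 members, as 47 windows of 300 bases from 250 before to 50 after the transcription start. The 150 bases before the start are printed for 4 members, SRSF1 and SRSF6 as SR genes that were low at day 3 and HNRNPA2B1 and HNRNPU as hnRNP genes that were low in the libraries that stood apart. They lie at chr17:58007247-58007396 on the minus strand (SRSF1), chr20:43457746-43457895 on the plus strand (SRSF6), chr7:26200747-26200896 on the minus strand (HNRNPA2B1) and chr1:244864544-244864693 on the minus strand (HNRNPU). Each is written 5′ to 3′ on the gene's strand. Capitals mark matches, on either strand, to the GC box GGGCGG or the CCAAT box CCAAT.
SRSF1: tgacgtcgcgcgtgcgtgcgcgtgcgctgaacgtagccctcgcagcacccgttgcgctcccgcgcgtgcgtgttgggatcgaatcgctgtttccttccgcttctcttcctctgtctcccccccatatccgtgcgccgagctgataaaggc
SRSF6: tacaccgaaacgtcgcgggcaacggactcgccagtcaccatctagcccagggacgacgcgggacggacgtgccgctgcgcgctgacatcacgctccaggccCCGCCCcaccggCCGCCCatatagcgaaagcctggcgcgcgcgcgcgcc
HNRNPA2B1: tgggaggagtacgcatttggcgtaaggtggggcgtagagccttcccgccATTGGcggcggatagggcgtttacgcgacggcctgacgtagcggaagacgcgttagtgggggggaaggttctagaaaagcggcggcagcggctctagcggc
HNRNPU: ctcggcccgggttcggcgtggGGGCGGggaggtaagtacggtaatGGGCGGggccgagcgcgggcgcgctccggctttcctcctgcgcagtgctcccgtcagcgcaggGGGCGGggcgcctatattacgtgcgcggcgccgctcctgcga
The SRSF1 stretch held no match, SRSF6 held 2 GC boxes, HNRNPA2B1 held 1 CCAAT box and HNRNPU held 3 GC boxes. Over the whole windows, the GC box was in 61.7% of the 47 member windows against 45% of all 35116 promoter windows, and the median GC content was 66% against 58.7%. CCAAT was in 1 of 12 SRSF windows (8.33%) and in 19 of 30 hnRNP windows (63.3%), against 34.6% of all windows. The E-box CACGTG was in 0 of 12 SRSF windows and 8 of 30 hnRNP windows (26.7%), against 7.26% of all. Shares near the background were found for the ETS core CCGGAAG (10.6% of member windows against 10.3%) and TATAAA (12.8% against 11.5%). The core AATNNACA bound by FOXH1, a partner of the activin-regulated SMADs, was in 1 of 47 member windows (2.13%) against 11% of all. Every motif was searched on both strands. Several windows belong to the same gene, and a match describes letters, not binding.

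Among the classical SR proteins, SRSF2, SRSF6 and SRSF1 had the lowest p at day 3. SRSF2 (SC35) binds exonic enhancers and marks nuclear speckles. Its row stood at 13.35, 13.45, 13.37 and 13.21 in day 0 replicates 1 to 4, and at 13.52, 13.29 and 13.60 at day 1. It read 12.40, 12.80 and 12.66 at day 3 and 12.80, 12.64, 12.93 and 13.07 at day 5. Every day 3 and day 5 sample was below every day 0 and day 1 sample. The difference from day 0 was -0.73 ± 0.20 (SE) at day 3 (limma adjusted p = 0.232) and -0.49 ± 0.19 at day 5 (limma adjusted p = 0.179). Without day 3 and day 5 replicate 2, SRSF2 fell by 0.82 ± 0.19 at day 3 (limma adjusted p = 0.0266; 2 of 37 members, SRSF2 and SRSF6, beside 5.72% of all rows) and differed by -0.42 ± 0.16 at day 5 (limma adjusted p = 0.161). Without day 3 replicate 2 alone the day 3 difference was -0.82 ± 0.21, which missed the threshold (limma adjusted p = 0.0600). Day 5 replicate 2 is in neither group of that comparison, so leaving it out narrowed only the shared spread.

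SRSF6 (SRp55) is an enhancer-binding SR protein with a pair of RNA recognition motifs. Day 0 replicates 1 to 4 read 12.74, 12.69, 12.46 and 12.27, and day 1 replicates read 12.89, 12.52 and 12.81. Day 3 replicates read 11.53, 12.27 and 11.12, and day 5 replicates 12.00, 11.71, 11.78 and 12.38. Day 3 replicates 1 and 3 were the lowest samples of the series, and day 3 replicate 2 lay only just under the lowest day 0 sample. Over all samples the day 3 difference was -0.90 ± 0.28 (limma adjusted p = 0.314). Without day 3 replicate 2, SRSF6 fell by 1.21 ± 0.26 (limma adjusted p = 0.02485), the 1 member of 37 past the test in that comparison, beside 3.19% of all rows. At day 5 it differed from day 0 by -0.57 ± 0.26 (limma adjusted p = 0.289), and day 5 replicate 4 lay within the day 0 range. A separate row carrying SRSF6 with ZNF624 was at 6.83 to 8.16 in all samples and differed by 0.56 at day 3 (limma adjusted p = 0.688).

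SRSF1 (ASF/SF2), the founding SR protein, had the largest day 3 difference of any member over all 14 samples. It read 13.51, 13.23, 13.00 and 13.42 at day 0, and 13.40, 12.62 and 13.58 at day 1. It read 11.99, 11.95 and 12.55 at day 3, and 12.56, 11.66, 13.26 and 12.99 at day 5. All day 3 samples were below all day 0 and day 1 samples, while day 5 replicate 3 was back inside the day 0 range. The day 3 difference was -1.13 ± 0.37 (limma adjusted p = 0.327), and -1.02 ± 0.31 without both replicate 2 libraries of days 3 and 5 (limma adjusted p = 0.0896). At day 5 the difference was -0.67 ± 0.34 with all samples and -0.35 ± 0.28 without those libraries (limma adjusted p = 0.354 and 0.548).

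**Figure D2:**
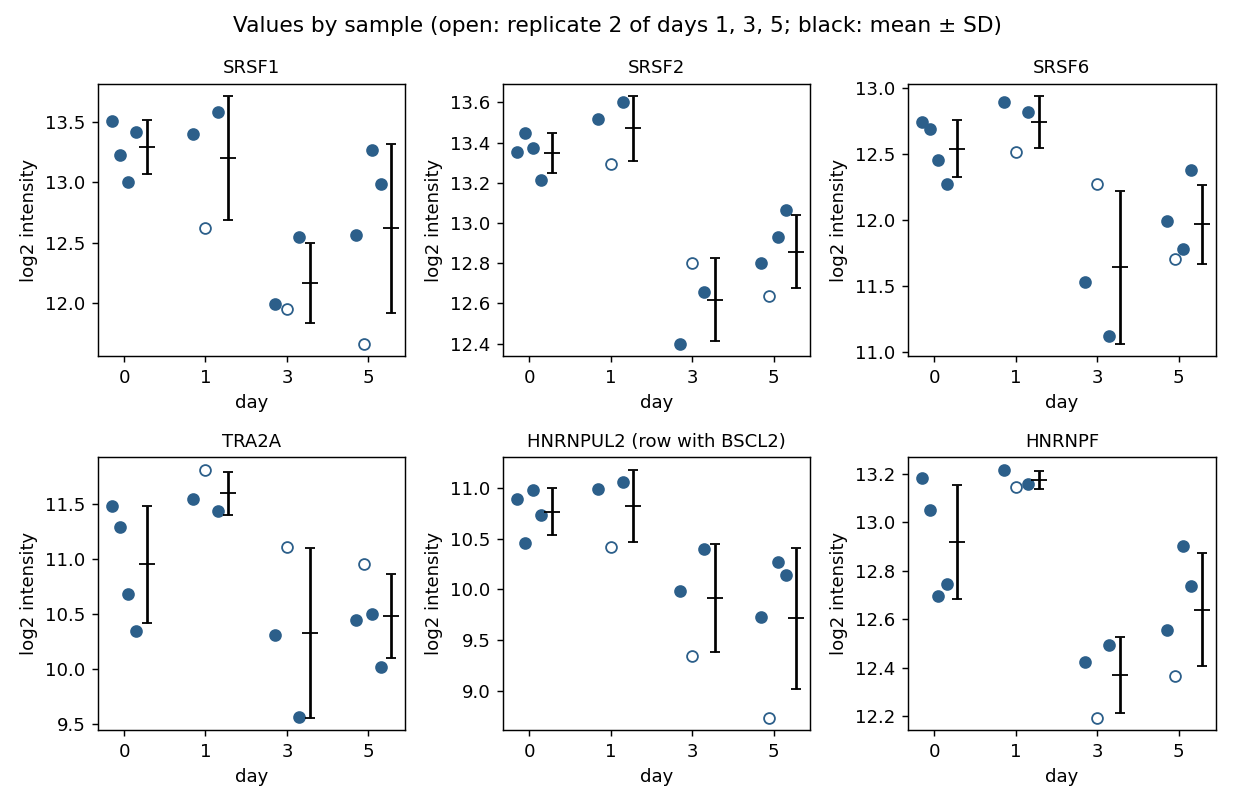
Log2 intensity in each of the 14 biological samples at days 0, 1, 3 and 5 for SRSF1, SRSF2, SRSF6, TRA2A, HNRNPUL2 and HNRNPF, 1 panel each, with a bar for the mean of the day. In SRSF2 the day 3 and day 5 samples (12.40 to 13.07) lie below the day 0 and day 1 samples (13.21 to 13.60), whereas TRA2A at day 3 (9.56 to 11.11) overlaps day 0 (10.34 to 11.49).

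The other SRSF members were smaller or less regular in their differences. SRSF3, the smallest SR protein, and SRSF7 both act as adapters for mRNA export. SRSF3 lay at 12.99 to 13.40 at day 0 and at 12.74, 13.42 and 12.76 at day 3. SRSF7 lay at 11.67 to 12.29 at day 0 and at 11.55, 12.92 and 11.33 at day 3. In both, day 3 replicate 2 was the highest and the other day 3 samples were below every day 0 sample, so the day 3 difference was -0.23 and -0.08 with all samples and -0.45 and -0.57 without that library (limma adjusted p = 0.878, 0.976, 0.439 and 0.465).

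SRSF12 (SRrp35), an SR protein that acts as a repressor, was the only SRSF row whose day 3 samples all exceeded day 0. It read 7.79, 7.61, 6.77 and 6.90 at day 0 and 7.98, 8.14 and 8.10 at day 3, a difference of 0.80 ± 0.45 (limma adjusted p = 0.693). At day 5 it read 8.22, 9.53, 7.80 and 7.42, a difference of 0.97 ± 0.42 (limma adjusted p = 0.2504) that came to 0.54 ± 0.33 without both replicate 2 libraries (limma adjusted p = 0.405). SRSF5, whose mRNA level is known to respond to growth signals, differed by 0.70 ± 0.38 at day 3 and 0.69 ± 0.35 at day 5 (limma adjusted p = 0.678 and 0.359) and by 0.40 ± 0.40 at day 3 without day 3 replicate 2 (limma adjusted p = 0.784), with its day 0 samples spread from 9.60 to 11.00. SRSF4, SRSF9, SRSF10 and SRSF11 differed from day 0 by -0.49 to -0.07 at day 3 and by -0.53 to -0.01 at day 5, and without both replicate 2 libraries by -0.42 to 0.29 and -0.27 to 0.19. SRSF10, a splicing repressor in its dephosphorylated form, differed by -0.71 ± 0.28 between day 5 and day 1 (limma adjusted p = 0.238), with all 4 day 5 samples (11.17 to 11.74) below all 3 day 1 samples (12.16 to 12.29).

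TRA2A and TRA2B bind GAA-rich exonic enhancers. TRA2A read 11.49, 11.29, 10.68 and 10.34 at day 0 and 11.54, 11.81 and 11.44 at day 1. It then read 10.31, 11.11 and 9.56 at day 3 and 10.44, 10.96, 10.50 and 10.02 at day 5. All day 5 samples were below all day 1 samples, but they overlapped the day 0 samples. Between day 5 and day 1 the difference was -1.12 ± 0.38 (limma adjusted p = 0.153), and without both replicate 2 libraries of days 3 and 5 TRA2A fell by 1.27 ± 0.32 (limma adjusted p = 0.0323), 1 of 37 members in that comparison beside 8.13% of all rows. Its second, dimmer row did not share this and differed by 0.64 (limma adjusted p = 0.758). TRA2B differed by -0.47 ± 0.25 in the same comparison (limma adjusted p = 0.436), again without overlap, and by -0.44 ± 0.25 between day 3 and day 0 (limma adjusted p = 0.700). Without day 3 replicate 2 the latter was -0.70 ± 0.23, with no overlap (limma adjusted p = 0.144).

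SRRM1 (SRm160) and SRRM2 (SRm300), coactivators of the spliceosome found in nuclear speckles, varied widely within a day. SRRM2 read 11.79, 11.93, 11.60 and 12.76 at day 0 and 12.35, 10.24 and 12.47 at day 1. It read 12.87, 10.01 and 12.54 at day 3 and 10.93, 9.56, 12.25 and 12.67 at day 5. Replicate 2 was the lowest sample of days 1, 3 and 5 alike. The day 3 difference was -0.21 ± 0.83 with all samples and 0.69 ± 0.64 without both libraries, and for SRRM1 it was -0.19 ± 0.60 and 0.52 ± 0.41, so the sign turned in both (limma adjusted p = 0.973, 0.656, 0.962 and 0.584).

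Among the hnRNPs, HNRNPUL2, a paralogue of the nuclear scaffold protein HNRNPU, had the largest differences from day 0 at days 3 and 5 over all 14 samples. Its row, shared with BSCL2, read 10.90, 10.46, 10.98 and 10.74 at day 0 and 11.00, 10.42 and 11.07 at day 1. It read 9.99, 9.35 and 10.40 at day 3 and 9.73, 8.73, 10.27 and 10.14 at day 5. All day 3 and day 5 samples were below all day 0 and day 1 samples. The difference from day 0 was -0.86 ± 0.37 at day 3 (limma adjusted p = 0.527) and -1.05 ± 0.34 at day 5 (limma adjusted p = 0.106), and the day 5 value was -0.72 ± 0.23 without both replicate 2 libraries (limma adjusted p = 0.0809). Without day 3 replicate 2 the day 3 value was -0.57 ± 0.39 (limma adjusted p = 0.611), smaller than the -0.78 ± 0.50 of HNRNPA1P6 (limma adjusted p = 0.574). Against day 1, day 5 differed by -1.11 ± 0.37 (limma adjusted p = 0.147), and by -0.78 ± 0.25 without both libraries (limma adjusted p = 0.0841).

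HNRNPF and its relatives HNRNPH1, HNRNPH2 and HNRNPH3 bind runs of G. HNRNPF read 13.19, 13.05, 12.69 and 12.75 at day 0, 13.22, 13.15 and 13.16 at day 1, and 12.42, 12.19 and 12.49 at day 3. At day 5 it read 12.56, 12.36, 12.90 and 12.74. Day 3 lay wholly below day 0, by -0.55 ± 0.21 (limma adjusted p = 0.447), while day 5 overlapped day 0. Without day 3 replicate 2 the HNRNPF difference at day 3 was -0.46 ± 0.23 (limma adjusted p = 0.404). HNRNPH2 had the lowest p of any member at day 1, where it read 10.90, 10.50 and 10.95 against 10.59, 10.24, 9.62 and 9.84 at day 0, an overlapping difference of 0.71 ± 0.37 (limma adjusted p = 0.928). Next at day 1 were TRA2A with 0.65 ± 0.38 and HNRNPLL, a regulator of CD45 exon choice, with 0.41 ± 0.28 (limma adjusted p = 1.00 for both). HNRNPLL read 10.61, 10.67, 10.43 and 10.32 at day 0, 10.70, 11.42 and 10.64 at day 1, 10.26, 10.92 and 10.39 at day 3 and 10.69, 10.95, 10.43 and 10.10 at day 5.

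HNRNPA2B1 and HNRNPU depended strongly on single libraries. HNRNPA2B1, an RNA-binding protein that also sorts RNAs, read 14.32, 14.25, 13.18 and 14.23 at day 0 and 14.22, 13.40 and 14.34 at day 1. It read 14.24, 12.00 and 13.89 at day 3 and 13.55, 11.76, 14.04 and 13.98 at day 5. Low values stood in day 0 replicate 3 and in replicate 2 of days 1, 3 and 5. The day 3 difference was -0.62 ± 0.61 with all samples and 0.07 ± 0.37 without both libraries (limma adjusted p = 0.870 and 0.957). HNRNPU read 13.53, 13.39, 12.58 and 13.58 at day 0, 13.50, 12.42 and 13.64 at day 1, 13.46, 11.15 and 13.08 at day 3, and 12.55, 10.74, 13.35 and 13.13 at day 5. The same 4 samples were the lowest of their days, and the day 3 difference went from -0.71 ± 0.65 to 0.00 ± 0.40 (limma adjusted p = 0.856 and 0.999).

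HNRNPA1, a repressor of exon inclusion that opposes SRSF1, read 14.56, 14.67, 14.34 and 14.63 at day 0 and 14.46, 13.56, 14.67 and 14.61 at day 5 on the row it shares with HNRNPA1L2 and HNRNPA1P10. Without both libraries its day 5 difference from day 0 was 0.03 ± 0.17 (limma adjusted p = 0.958). HNRNPC, which binds U-rich tracts and whose row also carries CHD8 and SNORD8, ran the other way at day 3: replicate 2 was the highest at 12.98, against 12.06 and 12.12. Its day 3 difference was -0.24 ± 0.27 with all samples and -0.53 ± 0.23 without both libraries (limma adjusted p = 0.889 and 0.235). HNRNPM differed by -0.44 ± 0.38 at day 5 on its brighter row, shared with ND1 and DYNC1I2, and by -0.67 ± 0.65 on the row it has alone (limma adjusted p = 0.643 and 0.681). On the brighter row it was -0.18 ± 0.34 without both libraries (limma adjusted p = 0.840). HNRNPK and HNRNPL, which bind C-rich and CA-rich RNA, differed by -0.38 ± 0.27 and -0.34 ± 0.31 at day 3 (limma adjusted p = 0.789 and 0.855). Without day 3 replicate 2 these were -0.17 ± 0.28 and -0.05 ± 0.31 (limma adjusted p = 0.905 and 0.982). At day 5, HNRNPU differed from day 0 by -0.83 ± 0.60 and HNRNPA2B1 by -0.67 ± 0.57 (limma adjusted p = 0.569 and 0.637), and without both libraries by -0.26 ± 0.35 and -0.14 ± 0.32 (limma adjusted p = 0.760 and 0.873). The rows of HNRNPA0, HNRNPA3, HNRNPAB, HNRNPD, HNRNPDL, HNRNPH1, HNRNPH2, HNRNPH3, HNRNPR, HNRNPUL1, HNRNPA1P6 and HNRNPA1P27 differed by -0.71 to 0.24 with all samples and by -0.60 to 0.39 without both libraries, none past the test.

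Counted over the members, differences from day 0 were below 0 in 9 of 37 at day 1 (background 47.2% of rows), 31 at day 3 (51.3%) and 31 at day 5 (51.6%), and day 5 was below day 1 in 35 (54.4%). The median difference of the 22 hnRNP rows was 0.11, -0.38 and -0.36 at days 1, 3 and 5, beside 0.03, -0.01 and -0.02 for all rows. Without both replicate 2 libraries of days 3 and 5 it was -0.03 at day 3 and -0.12 at day 5, beside -0.03 for all rows at both times. The median of the 11 SRSF rows was 0.20, -0.23 and -0.11 with all samples, and -0.42 and -0.22 at days 3 and 5 without those libraries. Leaving them out thus brought the hnRNP median at day 3 close to that of all rows and moved the SRSF median away from it. The sign of the day 3 difference turned in 13 of 37 members, 10 of them among the 22 hnRNP rows, and that of the day 5 difference in 7. The share of all rows whose sign turned was not counted. The F test called 2 of 37 members without day 3 replicate 2 (SRSF2 and SRSF6, limma adjusted p = 0.0350 and 0.0158; background 8.20%) and 3 of 37 without both libraries (these and TRA2A, limma adjusted p = 0.0308; background 11.5%). The counts and medians by sign describe the members and carry no test.

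Groups that did not overlap were counted as well. At day 1, 0 members lay wholly above day 0 (background 4.86%) and 0 wholly below (6.62%). At day 3, 1 lay wholly above (SRSF12; 3.27%) and 5 wholly below (SRSF1, SRSF2, SRSF6, HNRNPF and HNRNPUL2; 6.55%). At day 5, 0 lay wholly above (6.07%) and 2 wholly below (SRSF2 and HNRNPUL2; 8.57%), a share below the background. Day 5 lay wholly below day 1 in 9 members (9.06%): SRSF2, SRSF6, SRSF10, SRSF11, TRA2A, TRA2B, HNRNPDL, HNRNPF and HNRNPUL2, with 0 wholly above (7.08%). Without day 3 replicate 2, 11 members were wholly below day 0 at day 3 (17.4%), now with SRSF3, SRSF7, TRA2A, TRA2B, HNRNPC and HNRNPA1P6, and 2 wholly above (14.9%).

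**Figure D3:**
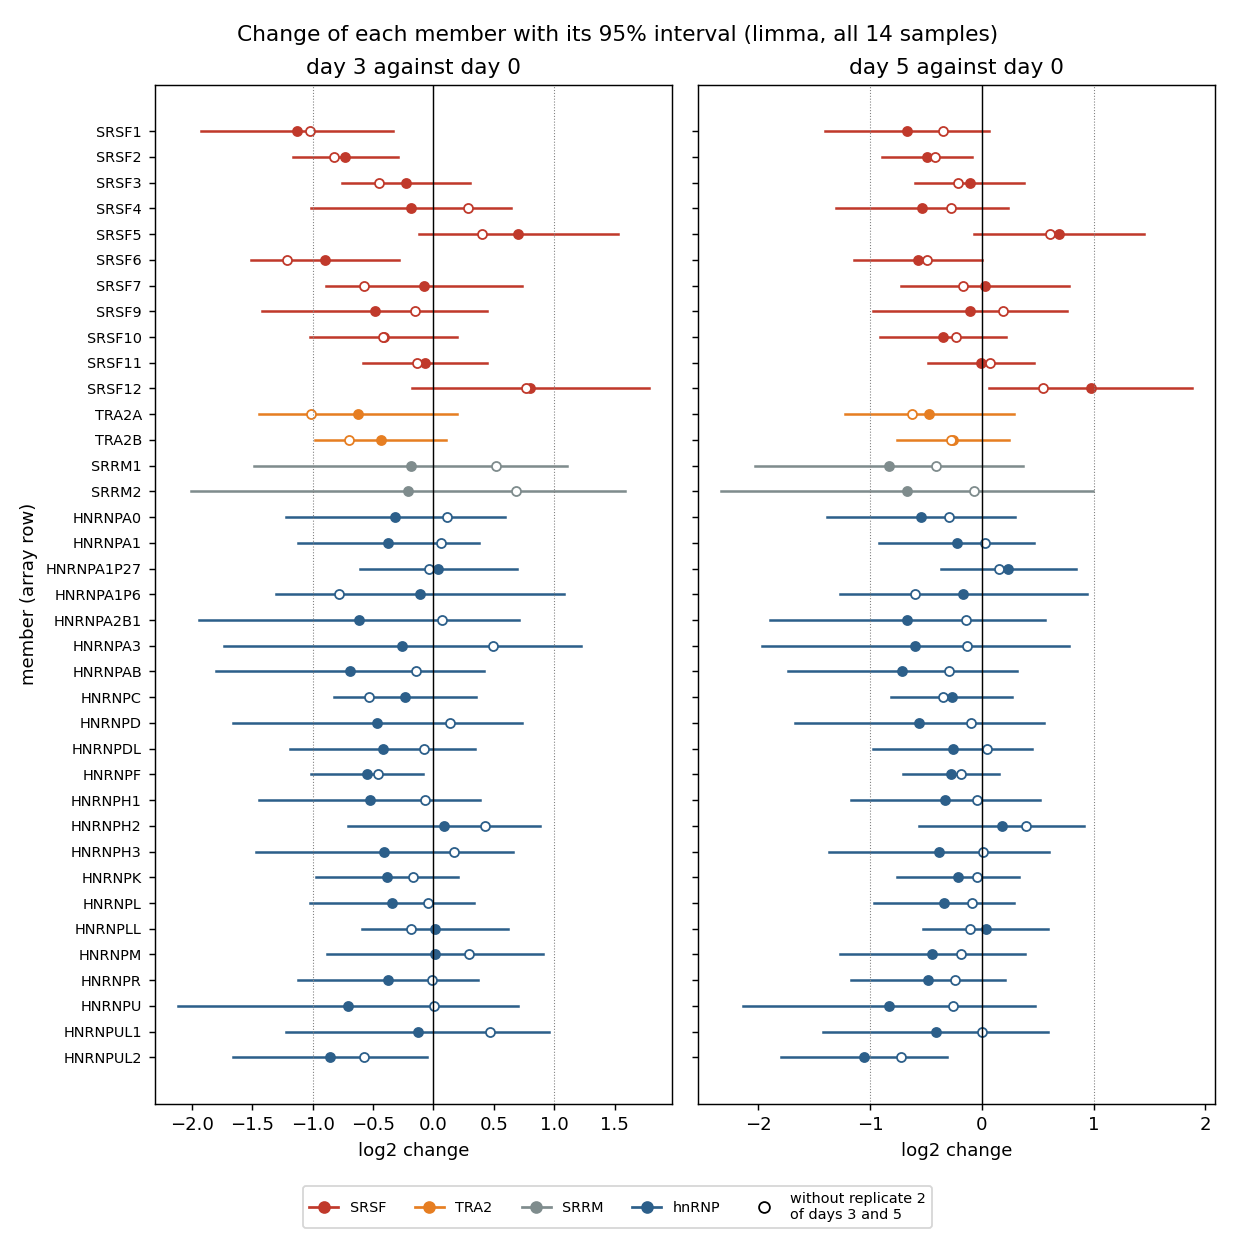
Log2 change from day 0 of each of the 37 members at day 3 (left) and day 5 (right); filled points and lines are the limma estimate and its 95% interval over all 14 samples, and open points are the estimate without replicate 2 of days 3 and 5. Open hnRNP points sit nearer 0 than filled ones in most members, whereas SRSF6 at day 3 goes from -0.90 to -1.21.

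The replicate 2 libraries shared a pattern over the members. Against the mean of the other samples of its day, replicate 2 had median hnRNP offsets of 0.19, -0.52, -1.06 and -1.03 in the order of days 0, 1, 3 and 5, while the median over all rows was between 0 and 0.04 at each time. The SRSF medians were 0.13, -0.27, 0.19 and -0.30. Replicate 2 was the lowest sample of its day in 18 of 22 hnRNP rows at day 1 (background 42.1% of rows), day 3 (44.8%) and day 5 (39.0%). Day 0 replicate 3 was the lowest in 17 of 22 (28.9%).

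The offset was largest in SRRM2, at -2.17, -2.69 and -2.39 at days 1, 3 and 5. HNRNPU stood at -1.15, -2.13 and -2.27, HNRNPA2B1 at -0.88, -2.07 and -2.09, and HNRNPA3, another A/B protein, at -1.14, -2.25 and -1.84. Some members went the other way at all 3 times. SRSF7 was offset by 0.22, 1.48 and 0.78, TRA2A by 0.32, 1.17 and 0.63, SRSF3 by 0.11, 0.67 and 0.43, and HNRNPC by 0.34, 0.89 and 0.31. Over the 37 members, offsets from the other samples of the day correlated at 0.91 between day 3 and day 5 replicate 2, at 0.91 between day 1 and day 5 replicate 2, and at 0.81 between day 1 and day 3 replicate 2. Over all rows the same pairs stood at 0.645, 0.513 and 0.509. Samples of other numbers reached like values over the members, such as 0.92 between day 1 replicate 1 and day 5 replicate 4. Deviations within a day sum to 0 and members share arrays and normalization, so these values are descriptions.

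At day 3, 13 members in replicate 2 were over 1 log2 unit below every other sample of the day (background 21.1% of rows), and 2 were as far above (HNRNPA1P6 and SRSF7; 21.5%). At day 5 these were 10 (9.69%) and 2 (HNRNPA1P6 and SRSF12; 9.16%), and at day 1 there were 3 below (6.38%). Other measures moved with these libraries. The mean of 10 proliferation genes relative to day 0 was -0.65 in day 3 replicate 2 and -1.02 in day 5 replicate 2, against -0.34 to -0.30 and -0.56 to -0.42 in the other samples of those days. In the same 2 libraries, 16 hnRNP proteins under other symbols stood at -1.05 and -0.80. Nonsense-mediated decay factors stood at -0.79 and -0.64, and SR-related proteins at -0.58 and -0.67. Genes of RS domain kinases and phosphatases stood at -0.54 and -0.55, of U1 and U2 snRNPs at -0.48 and -0.61, and of U4, U5 and U6 snRNPs at -0.39 and -0.48. Sm ring genes went the other way, at 0.80 and 0.47. Nuclear transport genes stood at -0.12 in day 3 replicate 2, above the other day 3 samples (-0.17 and -0.44). In day 5 replicate 2 they stood at -0.25, the lowest of the day. Endoderm markers were near the day 0 mean in day 3 replicate 2. In day 5 replicate 2 they stood at 4.13, far above day 0 but the lowest of the day (4.51 to 5.13 in the others). The part of cell state, RNA quality or array handling in the pattern was not tested.

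**Figure D4:**
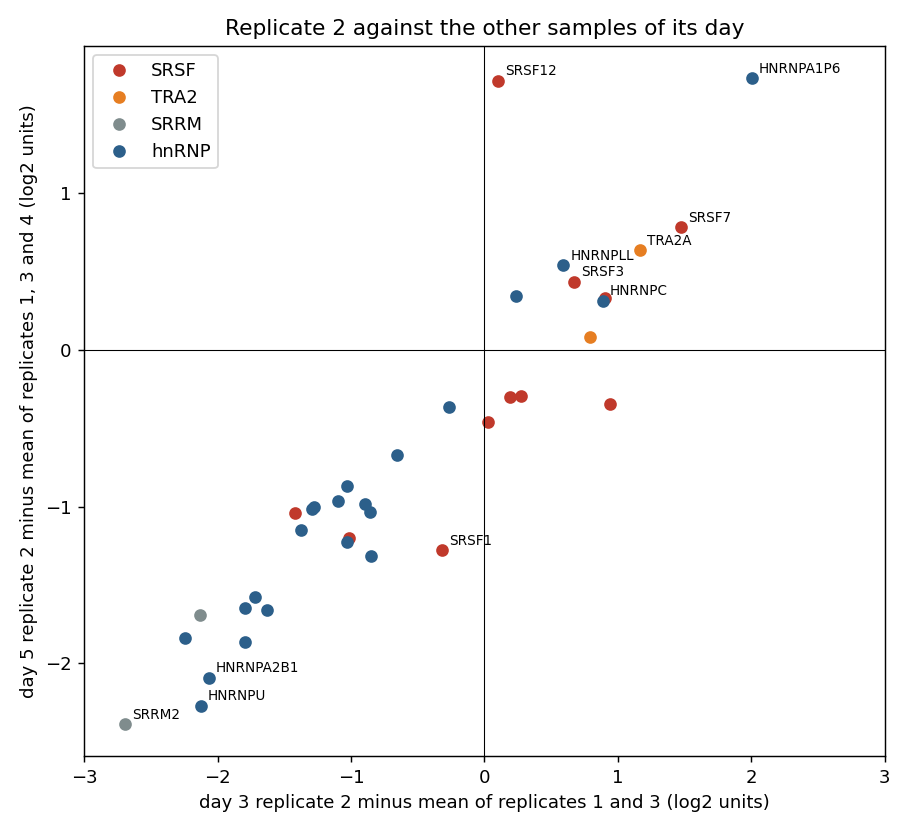
Offset of replicate 2 from the mean of the other samples of its day, in log2 units, at day 3 (horizontal) and day 5 (vertical), 1 point per member. Most hnRNP and both SRRM members lie at the lower left, down to -2.69 and -2.39 for SRRM2, while SRSF3, SRSF7, TRA2A and HNRNPC lie at the upper right.

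Partners of both families were read from lists of genes. The kinases and phosphatases of RS domains gave the 1 call over all samples among the 8 splicing lists. SRPK1, which phosphorylates SR proteins in the cytoplasm for import, was past the test in 1 of 10 measured genes of that list at day 5 against day 0, where 5.46% of all rows passed. It read 12.01, 11.88, 11.64 and 12.09 at day 0, 11.73, 11.53 and 11.87 at day 1, 11.22, 10.79 and 11.23 at day 3, and 10.66, 10.37, 10.90 and 11.13 at day 5. Every day 3 sample lay below every day 0 and day 1 sample, and so did every day 5 sample. SRPK1 fell by 1.14 ± 0.22 at day 5 against day 0 (limma adjusted p = 0.00881) and by 0.94 ± 0.24 against day 1 (limma adjusted p = 0.0488), and by 1.01 at day 5 without both replicate 2 libraries (limma adjusted p = 0.00510).

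No gene passed at day 5 against day 0 over all samples among 8 measured nuclear transport genes, 16 hnRNP proteins under other symbols, 23 SR-related proteins, 22 genes of U1 and U2 snRNPs, 8 Sm ring genes, 30 genes of the U4, U5 and U6 snRNPs and 10 nonsense-mediated decay factors. None of the 8 lists had a call at day 1 or day 3 over all samples. Without day 3 replicate 2, PCBP4 rose by 1.98 and PTBP2 fell by 1.38 at day 3 (limma adjusted p = 0.00618 and 0.0398). They belong to the 16 hnRNP proteins under other symbols. In that fit 1 of 10 decay factors was also past the test and lower, and 3.19% of all rows passed. Without replicate 2 of days 3 and 5, 4 genes outside the kinase list passed at day 5 against day 0, where 9.92% of all rows did. PTBP2, a polypyrimidine tract binding protein that keeps neuronal exons out, fell by 1.38 (limma adjusted p = 0.00328), against -1.17 ± 0.35 over all samples (limma adjusted p = 0.0780). PCBP4, a poly(C)-binding relative of HNRNPK, rose by 2.07 (limma adjusted p = 0.000248), against 1.85 ± 0.74 (limma adjusted p = 0.202). Its samples read 8.05, 7.55, 7.88 and 8.15 at day 0, and 9.61, 9.09, 10.29 and 10.03 at day 5, but 9.77, 5.61 and 10.01 at day 3. SRRM3, an SR-related protein of neural microexons, fell by 1.65 (limma adjusted p = 0.0271), against -1.33 ± 0.48 over all samples (limma adjusted p = 0.149). It read 6.90, 6.82, 6.24 and 6.26 at day 0 and 6.11, 6.18, 4.23 and 4.38 at day 5. Day 5 replicates 1 and 2 thus lay close to day 0, and replicate 2, left out for this call, was the highest of day 5. All these values lie below the array medians. RBM8A of the exon junction complex rose by 0.82 (limma adjusted p = 0.0336), against 0.68 ± 0.24 (limma adjusted p = 0.135).

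Other list genes differed at day 5 without passing over all samples or without both replicate 2 libraries. Without day 3 replicate 2 alone, 1 of 30 genes of the U4, U5 and U6 snRNPs passed as higher at day 5 against day 0. In that fit 1 of 16 hnRNP proteins under other symbols was higher and 1 lower, where 8.73% of all rows passed. Over all samples, TNPO3 and TNPO1, import receptors for SR proteins and hnRNPs, differed by -0.69 and -0.54 at day 5 (limma adjusted p = 0.410 and 0.240). The snRNP genes SF3A1, SNRPA and SNRNP200 differed by -0.67, -0.57 and -0.74, and PLRG1 by 0.85 (limma adjusted p = 0.543, 0.243, 0.589 and 0.0516). GEMIN4 and SNRPN of the Sm list differed by -0.67 and -0.60, BCLAF1 by -0.77 and SMG6 by 0.77, with adjusted p from limma between 0.249 and 0.786. Without both replicate 2 libraries TNPO3, SF3A1, SNRNP200, GEMIN4 and BCLAF1 were nearer 0, at -0.49 to -0.25, while SNRPN and SMG6 were at -0.95 and 1.08.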

How the data were processed

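Values came from 16 arrays. The deposited table holds gene-level intensity on a linear scale, named to genome build hg18 per the submitters' processing notes; the summarisation and normalization tools were not given in the sources used here. Of its values, 636 were below 0 (lowest -0.273). Array medians ran from 245 to 246. Values were taken as log2 after adding 1, and the technical arrays of replicate 4 were averaged, leaving 14 samples. limma 3.58.1 (R 4.3.3) fitted all 18495 rows with group as the only term (10 residual degrees of freedom), with Benjamini-Hochberg adjustment over all rows at 0.05; it was tested on simulated data. Rows were named by the platform's gene table. Members and lists were chosen with earlier results of these data known. Members were named by calls or, with under 3 calls, by the 3 lowest p; of each list, up to 3 calls or the 2 largest changes. Others (among them SRSF3, SRSF7, SRRM2, HNRNPA2B1 and HNRNPU) were chosen after their values were seen. Motifs were searched with Python 3.11.15. Alternatives covered blocks, scaling, filters, weights, technical arrays, row choice and left-out samples. An array has no read depth, so the number of arrays limits precision.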

Additional observations from a re-analysis of the deposited data

Results flagged for a closer look

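In the groups of 4 samples (days 0 and 5), 74 tests for a sample far from the others gave 5 cases, and chance gives about 1 in 20. In 4 of the 5 the sample was day 0 replicate 3, which stood below the other day 0 samples. HNRNPA2B1 read 13.18 there against 14.23 for the next lowest sample, HNRNPA3 read 10.72 against 12.36, HNRNPH3 read 12.94 against 13.54, and HNRNPR read 11.72 against 12.36. In the fifth, HNRNPDL read 11.66 in day 5 replicate 2 against 12.83 for the next lowest day 5 sample. All 5 are hnRNPs and all 5 samples were low. The count of 5 in 74 lies near the chance share, and members read on the same sample are not independent tests. Groups of 3 (days 1 and 3) were not tested in this way.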

How the results depend on the processing

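In the main fit, over all samples with equal weights, 0 members passed limma in any comparison. Shares in brackets are of all rows in the same fit. Leaving out 1 sample at a time gave 0 to 0 members at day 1, 0 to 1 at day 3, 0 to 0 at day 5 and 0 to 0 for day 5 against day 1, and 0 to 2 in the F test. The 1 at day 3 (SRSF6; 3.19%) and the 2 in the F test (SRSF2 and SRSF6; 8.20%) came without day 3 replicate 2. Without day 3 and day 5 replicate 2 the counts were 2 at day 3 (5.72%), 1 for day 5 against day 1 (8.13%) and 3 in the F test (11.5%). These libraries were picked out from the same data. Array weights, which count less regular arrays less, gave 1 at day 1 (13.7%), 6 at day 3 (15.1%), 11 for day 5 against day 1 (34.6%) and 13 in the F test (45.5%). Trend with robust moderation gave 1 for day 5 against day 1 (3.54%) and 1 in the F test (4.03%), and a pseudocount of 16 or leaving out the dimmest 25% of rows gave 1 in the F test (4.36% and 5.76%). With alternatives chosen after seeing the data, leaving out replicate 2 of days 1, 3 and 5 gave 3 at day 3 (1294 of 18495 rows), 1 at day 5 (11.4%), 1 for day 5 against day 1 (6.47%) and 2 in the F test (11.7%), and also leaving out day 0 replicate 3 gave 3 at day 3 (5.33%), 1 for day 5 against day 1 (6.24%) and 2 in the F test (9.79%).

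With the replicate number as a block, 1 member, HNRNPUL2, passed at day 5 against day 0 (limma adjusted p = 0.0173; 7.83% of rows), at day 5 against day 1 (4.01%) and in the F test (4.64%). Deviations of 19 same-numbered pairs correlated between -0.284 and 0.645, with 10 pairs over 0.1. In each of the 4 comparisons tested at least 1 pair was under 0.1, so the numbers were not taken to pair the samples. This was a rule and not a test of pairing. Among days 1, 3 and 5, replicate 2 pairs stood at 0.509 to 0.645 and replicate 3 pairs at 0.365 to 0.561. The replicate 4 pair of days 0 and 5 stood at 0.512. Differently numbered pairs ran from -0.616 to 0.516. A fit of 2 groups alone gives no F test. For the 21 changes with the lowest p or with no overlap between groups, 596 alternative values kept their side of the threshold, 28 crossed to past it and 0 turned sign. These changes were picked from the same data. Groups without overlap cannot turn sign when samples are left out, so the 0 was largely fixed in advance. With the mean over all rows of a gene, SRSF6 at day 3 shrank to -0.17 and TRA2A at day 5 against day 1 to -0.24. Other members did turn sign, 13 of 37 at day 3 without replicate 2 of days 3 and 5 (share of all rows not counted). Family medians moved by less than 1 SD between samples, an SD that the replicate 2 libraries themselves widen (0.48 for hnRNPs).

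Limits: with 3 or 4 samples a day, intervals of most members reached 1 log2 unit. Rows shared with other genes, and the unstated normalization, limit what a value stands for, and splice isoforms were not seen.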
